A study of Mus musculus with 6 samples.

Results

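The receptors of the common gamma chain cytokines and the interleukin-7 receptor chain that TSLP shares were followed in splenic natural killer (NK) cells of the mouse, sorted by whether they carried CD117, the receptor encoded by Kit. The set was fixed by name and comprised Il7r, Il2ra, Il2rb, Il2rg, Il15ra, Il21r, Il4ra, Il9r and Crlf2. The platform annotation names 19 probes for 7 of these 9 genes, among 17626 genes named on the array in all. Il2rg and Il4ra have no probe named in that annotation and were not analysed here. All cells came from spleens of 7-week-old female C57Bl/6 mice, for which the labels state no altered allele and no agent given, and both groups were sorted as CD3-negative and NK1.1-positive. The Kit+ group (3 samples) carried CD117 on its surface and the Kit- group (3 samples) did not. The sort was done 3 times and the titles number the samples 1 to 3 in each group, but the labels do not say how many mice entered a sample. Each sample was hybridised to 1 one-colour Illumina bead array.

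Cytokines of the common gamma chain family signal through receptors that share the chain encoded by Il2rg. IL-7 binds the Il7r chain paired with the gamma chain, whereas IL-2 and IL-15 share the signalling chain encoded by Il2rb and are captured by private alpha chains, encoded by Il2ra and Il15ra. The receptors activate the kinases Jak1 and Jak3 and transcription factors of the STAT family. Mature splenic NK cells depend on IL-15, whereas Il7r marks thymic NK cells, helper-like innate lymphoid cells, T cells and lymphoid precursors, and Il7r with Crlf2 forms the receptor for TSLP. The rule for this set asks whether the IL-7 receptor chain and the IL-2/IL-15 receptor chains differ in how they follow CD117.

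Raw signal had a median between 68.9 and 130 per array, and its 99th percentile ran from 1027 on Kit- 2 to 6370 on Kit- 1. A background level was taken on each array as the 95th percentile of 1176 probes for olfactory and vomeronasal receptors, and it ran from 6.58 to 7.23 in normalized log2 intensity. Between 15.1% and 29.8% of the probes on an array exceeded it. Kit, the gene of the sorted protein, was 7.73, 8.79 and 8.50 in Kit- samples 1 to 3 and 10.68, 12.09 and 10.76 in Kit+, which checks the labels. Ncr1, which encodes the NK receptor NKp46, stood at 10.03 ± 1.24 in Kit- and 10.48 ± 1.20 in Kit+, and Klrb1c, which encodes NK1.1, at 12.04 ± 0.54 and 11.44 ± 0.53 (SD, n = 3 each). Both NK markers were above background on all 6 arrays. Cd3e was as well, at 9.02 ± 0.53 and 8.21 ± 0.96 (SD, n = 3 each), in cells sorted as lacking CD3 on the surface.

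Il7r rose in Kit+ cells, and it was the 1 receptor called of the 7 tested. On its brightest probe the normalized log2 intensity was 7.42, 6.83 and 8.31 in Kit- samples 1 to 3 and 10.06, 10.05 and 9.46 in Kit+ samples 1 to 3. Every Kit+ value lay above every Kit- value, as it did for 10.0% of all tested genes. With 3 samples a group, limma put the rise at 5.05-fold (log2 fold 2.34 ± 0.37 SE, adjusted p = 0.0356) and its 95% interval at 2.77-fold to 9.21-fold. It ranks as the 10th largest among the 62 genes called higher. Of the 7 receptor genes tested, 1 was called, and it was higher in Kit+. Over all 11743 tested genes 1.25% were called, 0.528% higher and 0.724% lower.

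Within the sort numbers, the Il7r rise was 2.64 in number 1, 3.22 in number 2 and 1.15 in number 3 on the log2 scale. Number 3 had both the highest Kit- value and the lowest Kit+ value. Blocking on the replicate number, the limma adjusted p was 0.00468, and Il7r was again the 1 receptor called, where 8.24% of all genes were. Sample Kit- 2 lay below its own background level, and with that array set to the background level the fold was 4.60. The call was lost in each of the 6 fits without a block that left out 1 sample (log2 fold between 1.99 and 2.73, limma adjusted p between 0.0735 and 0.14), and in the blocked fit without number 2 (log2 fold 1.89, limma adjusted p = 0.0748). Those 6 fits called 0% to 0.647% of all genes, and that blocked fit 1.23%. The Il7r call was also lost when arrays were centred on their medians and not quantile normalized (log2 fold 2.20, limma adjusted p = 0.678). In that setting 0 of 11709 genes were called.

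**Figure D1:**
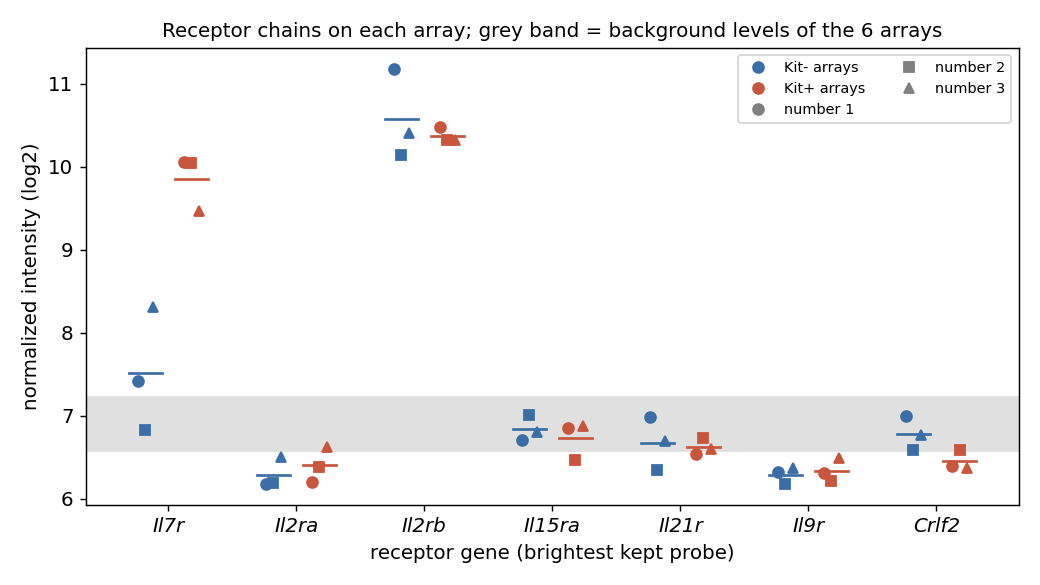
Normalized log2 intensity (vertical axis) of the brightest kept probe of each tested receptor gene (horizontal axis) on the 6 arrays, with Kit- in blue, Kit+ in red, a symbol for each sort number and a bar at each group mean. The grey band spans the background levels of the 6 arrays, 6.58 to 7.23. Il7r is the 1 gene whose groups stand well apart, and Il2rb is the 1 gene whose values lie clear of the band in both groups.

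The rise of Il7r rested on 1 of its 4 probes. Probe 6380500, annotated to the RefSeq transcript, gave the values above. Its raw signal went from 361.4 to 2358.4 in number 1, from 124.0 to 671.9 in number 2 and from 285.3 to 489.8 in number 3. These are raw ratios of 6.53, 5.42 and 1.72, so the direction was present in each pair before any normalization. In the deposited value table the corresponding ratios were 6.81, 10.4 and 2.29. Probe 2060088, annotated to the same transcript, was below background on all 6 arrays, between 5.90 and 6.19.

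The other Il7r probes are annotated to cDNA records of the gene and were dim. Probe 100870368 read 5.92, 6.20 and 6.28 in Kit- and 6.92, 6.67 and 6.29 in Kit+ samples 1 to 3, above background on Kit+ 1 alone. Its Kit+ value was higher in each number, and the change was not called (limma adjusted p = 0.429 with every kept probe tested on its own). Probe 103780026 lay between 6.05 and 6.72, above background on Kit- 1 alone, and was not called (limma adjusted p = 0.874). With the mean of the 3 kept probes in place of the brightest, the log2 fold of Il7r was 0.87 and the call was lost (limma adjusted p = 0.0722).

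**Figure D2:**
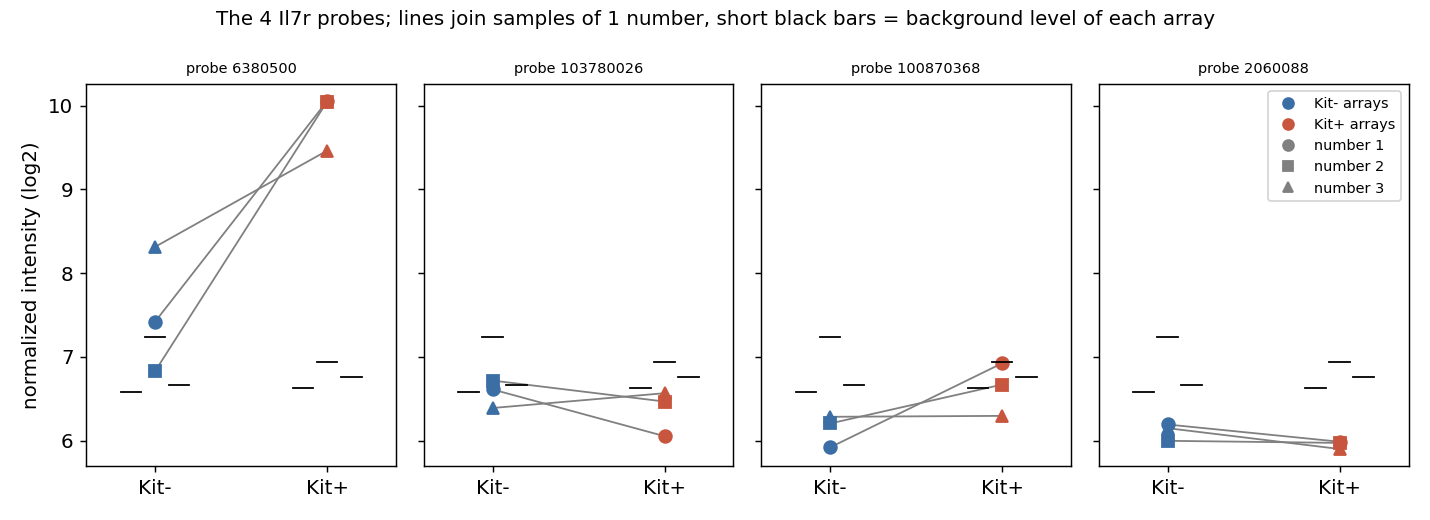
Normalized log2 intensity (vertical axis) of the 4 Il7r probes, a panel each, in Kit- (blue) and Kit+ (red) samples, with lines joining samples of the same sort number and short black bars at the background level of each array. On probe 6380500 all 3 lines rise, from between 6.83 and 8.31 to between 9.46 and 10.06. The other 3 probes stay at or near the background levels.

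Il2rb, the signalling chain of the IL-2 and IL-15 receptors, was bright in both groups and was not called. Its 1 probe read 11.18, 10.15 and 10.40 in Kit- samples 1 to 3 and 10.49, 10.32 and 10.33 in Kit+ samples 1 to 3. The groups overlapped, and the Kit- sample of number 1 stood above the rest. The log2 fold was -0.20 (SE 0.28, limma adjusted p = 0.914, blocked 0.674), and the 95% interval of the Kit+ to Kit- ratio ran from 0.558 to 1.36. A rise of the size seen for Il7r lies outside that interval, whereas a fall of the size of its lower end does not. Il2rb was above background on all 6 arrays, as no other probe of the set was.

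The contrast between IL-7 and IL-2/IL-15 receptor chains had the same sign in each sort number. The Il7r change exceeded the Il2rb change by 3.33, 3.05 and 1.23 on the log2 scale in numbers 1 to 3, a mean of 2.54 ± 1.14 (SD, n = 3). Against the mean change of Il2ra, Il2rb and Il15ra the differences were 2.81, 3.29 and 1.11, a mean of 2.40 ± 1.14 (SD, n = 3). Il2ra enters that mean although it was below background on all 6 arrays, and Il15ra was near it, above background on 2 of 3 arrays in each group. A fall of either could hardly be seen, so Il2rb is the 1 chain of that mean measured clear of background. The difference was 0.90 with the mean of each gene's kept probes. No p-value is given, because the set was assembled with the Il7r result known.

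**Figure D3:**
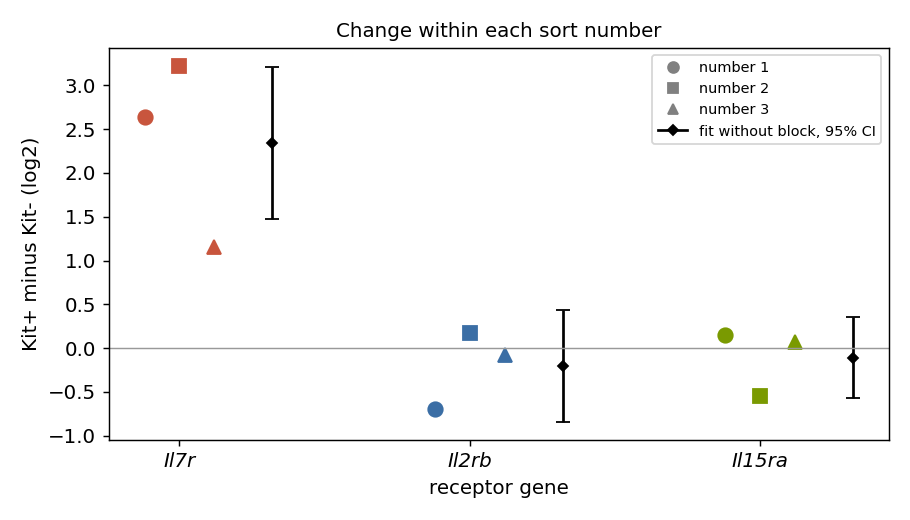
Kit+ minus Kit- difference in normalized log2 intensity (vertical axis) for Il7r, Il2rb and Il15ra, with a symbol for each sort number and, in black, the estimate of the fit without a block with its 95% interval. The Il7r points lie at 2.64, 3.22 and 1.15, and those of the other genes lie on both sides of 0.

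The private alpha chains of IL-2 and IL-15 were at or near background. Il15ra, which presents IL-15 to the Il2rb chain, had 6 probes, and its brightest read 6.71, 7.01 and 6.80 in Kit- and 6.86, 6.47 and 6.88 in Kit+ samples 1 to 3. This probe was above background on 2 of 3 arrays in each group, and the groups overlapped. Its log2 fold was -0.11 (SE 0.20, limma adjusted p = 0.946, blocked 0.838), with a 95% interval of the Kit+ to Kit- ratio from 0.676 to 1.27. The next probe lay between 6.40 and 6.92 and was above background on 2 Kit- arrays and 1 Kit+ array, and the remaining probes exceeded it on at most 1 array. Il2ra, the CD25 chain of the high-affinity IL-2 receptor, had 4 probes, all below background on all 6 arrays. Its brightest probe lay between 6.18 and 6.51 in Kit- and between 6.20 and 6.63 in Kit+, so no fold is given (limma adjusted p = 0.945).

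The receptors for IL-21, IL-9 and TSLP were likewise dim. Il21r had 2 probes, and the brighter read 6.99, 6.34 and 6.69 in Kit- and 6.54, 6.74 and 6.60 in Kit+ samples 1 to 3. It was above background on 2 Kit- arrays and on no Kit+ array (limma adjusted p = 0.979). Il9r, the IL-9 receptor chain, lay between 6.18 and 6.49 on its 1 probe, below background on all 6 arrays (limma adjusted p = 0.977). Crlf2, which pairs with Il7r to bind TSLP, read 7.00, 6.59 and 6.77 in Kit- and 6.40, 6.59 and 6.37 in Kit+ samples 1 to 3. It was above background on 2 Kit- arrays and on no Kit+ array, and was not called (limma adjusted p = 0.561, blocked 0.355). Its Kit- values all lay at or above its Kit+ values, the closest pair agreeing to 2 decimals at 6.59, where 7.90% of all genes had every Kit+ value below every Kit- value. Of the 19 probes of the set, 10 were above background on no array. A probe at background sets no lower limit on the transcript, so absence is not shown for these genes.

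Several of the receptor genes are neighbours in the genome. On the RefSeq assembly GRCm38.p6 no protein-coding gene lies between Il2ra and Il15ra, and none between Il4ra and Il21r, while Il7r and Il2rb share a chromosome with 332 protein-coding genes between them. No promoter window was listed for Il2rb. The 300-base windows around the annotated starts of Il7r and Il2ra are given from RefSeq, as examples of a receptor gene that rose and of one at background. Both read 5′ to 3′ along the gene, with the annotated start counted as position 1, and capitals mark matches to AGGAAG or CGGAAG (cores of ETS family sites), TGTGGT (RUNX) and GTAAACA (FOXO) on either strand. The Il7r window is chr15:9529827-9530126 on the minus strand and the Il2ra window is chr2:11642542-11642841 on the plus strand.
Il7r: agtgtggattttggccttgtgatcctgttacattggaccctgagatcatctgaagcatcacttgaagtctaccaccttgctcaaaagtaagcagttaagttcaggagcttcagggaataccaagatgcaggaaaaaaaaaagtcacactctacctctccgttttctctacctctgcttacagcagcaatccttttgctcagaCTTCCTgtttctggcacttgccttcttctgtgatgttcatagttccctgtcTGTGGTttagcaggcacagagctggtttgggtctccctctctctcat
Il2ra: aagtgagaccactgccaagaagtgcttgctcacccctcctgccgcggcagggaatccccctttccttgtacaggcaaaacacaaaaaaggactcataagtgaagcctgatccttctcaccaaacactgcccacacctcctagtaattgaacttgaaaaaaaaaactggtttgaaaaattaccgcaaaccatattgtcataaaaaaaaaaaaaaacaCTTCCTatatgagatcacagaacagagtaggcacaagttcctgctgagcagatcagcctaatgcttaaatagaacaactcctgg
AGGAAG occurs once in each window, on the opposite strand, with its first base at -48 in Il7r and -34 in Il2ra, and is present in 35.4% of all 32851 promoter windows of this length. TGTGGT occurs in the Il7r window, from position 4, and in 16.8% of all windows. CGGAAG and GTAAACA, found in 16.9% and 3.65% of all windows, occur in neither. The motifs do not overlap each other here, and a match is a description of the letters.

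The genes whose pattern over the 6 arrays was most like that of Il7r were Ttc3, Rtel1, Nampt, Slmap and Spats2l, with Pearson correlations between 0.993 and 0.999 across the arrays. They were taken as the 5 highest of all tested genes, and the arrays share the division into Kit- and Kit+. Ttc3, which encodes a ubiquitin ligase, read 7.54, 7.17 and 8.11 in Kit- and 9.39, 9.27 and 8.96 in Kit+ samples 1 to 3. Its level in Kit+ was 3.03 times that in Kit- (log2 fold 1.60 ± 0.27 SE, adjusted p = 0.0409 in limma). Nampt, an enzyme of NAD synthesis, Rtel1, a DNA helicase, and Slmap had log2 folds between 0.94 and 1.14 and were not called without the block (limma adjusted p between 0.0755 and 0.0905, blocked between 0.0172 and 0.0221). Spats2l was below background on all 6 arrays. Among the other receptors, the correlation with Il7r ranged from -0.63 for Crlf2 to 0.39 for Il2ra. Both ends come from dim genes, since Il2ra was below background on all 6 arrays and Crlf2 on all Kit+ arrays. For Il2rb, the receptor measured clear of background, it was -0.23.

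Of 43 tested genes in 5 lists of the pathway, none was called in the fit without a block, against 1.25% of all genes, and 11 (25.6%) had an unadjusted p under 0.05, against 13.1% of all genes. With the replicate block, Jak3 rose and 8 genes fell, where 3.86% of all genes were called higher and 4.39% lower. Their median log2 fold was 0.00, beside 0.03 over all genes. With the block and both samples of number 1, 2 or 3 left out, 4, 2 and 8 of the 43 were called, where 7.61%, 1.23% and 10.5% of all genes were.

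The kinases downstream of the gamma chain moved in opposite directions with the block. Jak3, which binds the gamma chain, lay between 8.99 and 9.12 in Kit- and read 9.66, 9.69 and 9.69 in Kit+ samples 1 to 3 (log2 fold 0.64, SE 0.16, limma adjusted p = 0.135, blocked 0.0472). Jak1, which binds the cytokine-specific chains, read 10.91, 9.49 and 10.08 in Kit- and 9.38, 8.52 and 9.77 in Kit+ samples 1 to 3 (log2 fold -0.94, SE 0.43, limma adjusted p = 0.41, blocked 0.0421). The Jak3 groups did not overlap, with Kit+ higher, as in 10.0% of all genes, and the Jak1 groups did. Stat3, a transcription factor of the IL-21 receptor among others, had a log2 fold of -0.79 (limma adjusted p = 0.191, blocked 0.0498). The phosphoinositide kinase genes Pik3cd and Pik3r1, which encode the p110 delta and p85 alpha subunits, had log2 folds of -1.31 and -0.70 (limma adjusted p = 0.0562 and 0.542, blocked 0.00821 and 0.0414), with Pik3cd above background on 1 of 3 Kit+ arrays. Stat5a, a main transcription factor of IL-2, IL-7 and IL-15 signals, was above background on 2 Kit- arrays and on no Kit+ array and was not called (limma adjusted p = 0.31, blocked 0.149), and Stat5b was above background on 1 array in each group.

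Among 7 feedback inhibitors of the pathway none was called with or without the block. Socs1, an inhibitor of JAK kinases, was nearest, at 8.47 ± 0.35 in Kit- and 7.63 ± 0.26 in Kit+ (limma adjusted p = 0.166, blocked 0.054; SD over 3 samples). Cish, which is induced by STAT5, stood at 8.34 ± 0.92 and 8.81 ± 0.81 (limma adjusted p = 0.876, blocked 0.189; SD over 3 samples).

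Of 9 tested survival and growth targets, 3 were called lower with the block, where 4.39% of all genes were, and none was called higher. Their folds were above 0 for 4 genes and below 0 for 5. Ccnd2, which encodes cyclin D2, read 10.72, 11.67 and 11.79 in Kit- and 9.49, 10.49 and 10.31 in Kit+ samples 1 to 3 (log2 fold -1.30, SE 0.36, limma adjusted p = 0.163, blocked 0.00323). Each number had less in Kit+ than in Kit-, and the groups did not overlap, as in 7.90% of all genes with Kit+ lower. Pim3 and Pim1, which encode serine/threonine kinases induced by cytokines, had blocked adjusted p of 0.0189 and 0.0426 (limma adjusted p = 0.382 and 0.337 without it). Pim3 had a log2 fold of -0.97. Pim1 was below background on all Kit+ arrays and on Kit- 2, so no fall is shown in number 2. By group means Pim1 was at least 1.61-fold lower in Kit+. Without the block, the 95% interval of its Kit+ to Kit- ratio ran from 0.204 to 0.947. Pim2 went the other way, higher in Kit+ in each number, and was not called (log2 fold 0.72, limma adjusted p = 0.286, blocked 0.101). Bcl2, a survival gene that IL-7 maintains in lymphocytes, stood at 9.60 ± 0.51 and 9.90 ± 0.55 (limma adjusted p = 0.886, blocked 0.491; SD over 3 samples).

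Of 8 genes for regulators of Il7r transcription, 1 was called lower with the block, where 4.39% of all genes were. Their folds were above 0 for 4 genes and below 0 for 4. Ets1, a transcription factor of the ETS family, read 7.91, 6.96 and 7.32 in Kit- and 6.40, 5.93 and 6.07 in Kit+ samples 1 to 3. It was below background on all Kit+ arrays and on Kit- 2, and was at least 1.53-fold lower in Kit+ (limma adjusted p = 0.0818, blocked 0.00433). Gabpa, an ETS family member, stood at 6.97 ± 0.43 and 7.12 ± 0.36, and Foxo1 at 7.06 ± 0.11 and 7.01 ± 0.12 (limma adjusted p = 0.952 and 0.975; SD over 3 samples). Foxp1 was lower in Kit+ in each number and was not called (log2 fold -0.60, limma adjusted p = 0.503, blocked 0.108). Spi1 was higher in each number, above background on 2 Kit+ arrays and on no Kit- array, and was not called (limma adjusted p = 0.498, blocked 0.223). Runx1 and Runx3 were below background on all arrays.

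Of the 7 ligand genes, 4 were tested and none was called with or without the block. Il15, the ligand of the Il2rb and Il15ra chains, read 7.34, 6.82 and 7.51 in Kit- and 7.62, 8.06 and 7.68 in Kit+ samples 1 to 3 (log2 fold 0.56, SE 0.24, limma adjusted p = 0.375, blocked 0.188). Il7 was below background on all arrays. Il2 was above it on 1 Kit+ array and Il4 on 1 array in each group.

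**Figure D4:**
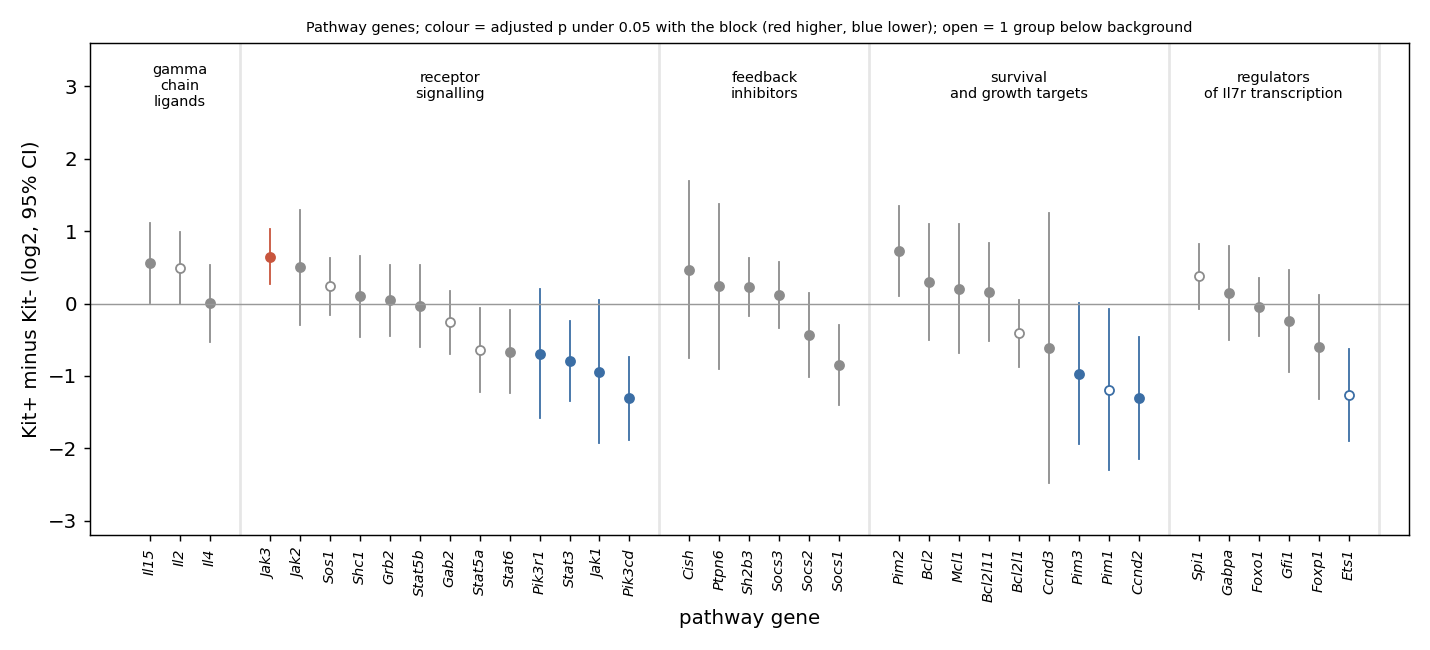
Kit+ minus Kit- log2 fold of the pathway genes that were above background on at least 1 array (vertical axis), grouped by list along the horizontal axis, with 95% intervals from the fit without a block. Red and blue mark genes called higher (Jak3) and lower (8 genes) with the replicate block, and open circles mark genes below background on all arrays of 1 group, whose point is the fitted value and no bound.

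Some markers of other cell types moved with the same division of samples, and their part in the Il7r rise was not tested. Over all tested genes 0.528% were called higher without the block and 3.86% with it. In sorted cells taken in bulk, fewer cells of a type and less RNA per cell cannot be told apart. The macrophage and monocyte list had 4 tested genes of 8, and its summed linear intensity was 335 to 373 on Kit- and 658 to 909 on Kit+ arrays. Adgre1, which encodes F4/80, rose in Kit+ (log2 fold 1.92, limma adjusted p = 0.0124) and exceeded background on 1 Kit- array. C1qb was called with the block alone (limma adjusted p = 0.273, blocked 0.0189). C1qa and Lyz2 were not called (limma adjusted p = 0.316 and 0.828, blocked 0.149 and 0.431), and Lyz2 was lower in Kit+ in number 3. The neutrophil list, with 4 tested of 6, summed to 333 to 537 on Kit- and 673 to 2090 on Kit+ arrays. S100a8 and S100a9 were called with the block alone (limma adjusted p = 0.0711 and 0.135, blocked 0.00136 and 0.00293). So was Camp (limma adjusted p = 0.384, blocked 0.0478). Ltf was not called (limma adjusted p = 0.621, blocked 0.3) and was lower in Kit+ in number 2. The groups of both lists were apart on every array. The dendritic cell list, with 6 tested of 8, summed to 1421 to 2444 on Kit- and 2730 to 6484 on Kit+. Its class II genes H2-Aa and H2-Ab1, which B cells and macrophages also express, were called higher with the block alone (limma adjusted p = 0.179 and 0.167, blocked 0.000618 and 0.00134). Its other 4 tested genes were not called, with log2 folds of 0.17 for Itgax, 0.06 for Xcr1, -0.19 for Siglech and -0.22 for Zbtb46, and the median of the list was 0.11.

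Lymphoid lists that could carry Il7r gave mixed values. The T cell list summed to 2761 to 3975 on Kit- and 4068 to 5775 on Kit+ arrays. Cd3d and Cd28 were called higher with the block alone (limma adjusted p = 0.193 and 0.329, blocked 0.0034 and 0.015), while Cd4, Cd8a and Cd5 were below background on all arrays. Cd3e went the other way, lower in Kit+ in each number (log2 fold -0.81, not called), Cd3g and Thy1 had log2 folds of 0.48 and -0.03 and were not called, and the median of the list was 0.08. The B cell list, with 5 tested of 7, summed to 453 to 695 on Kit- and 625 to 1531 on Kit+, higher in Kit+ in each number. Cd79b and Blnk were called higher with the block alone (limma adjusted p = 0.523 and 0.435, blocked 0.0143 and 0.0388), and Pax5 and Ebf1 were below background on all arrays. Of the early lymphoid precursor list, 5 of 7 genes were tested, the sums overlapped (768 to 1140 on Kit- and 800 to 1038 on Kit+), and Rag1, Rag2 and Vpreb1 were below background on all arrays. The helper-like innate lymphoid list, with 6 tested of 10, summed to 982 to 1369 on Kit- and 759 to 1035 on Kit+, lower in Kit+ in each number. Its transcription factor gene Gata3 stood at 9.34 ± 0.55 and 8.42 ± 0.42 (limma adjusted p = 0.269, blocked 0.0741; SD over 3 samples), and none of its genes was called with or without the block.

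The remaining lists were those of progenitors, mast cells and NK cells. Haematopoietic progenitor markers, with 8 tested of 9, summed to 788 to 857 on Kit- and 1112 to 1892 on Kit+ arrays. With the block 4 were called higher, namely Lmo2, Mpo, Myb and Tal1, where 3.86% of all genes were. None of them was called without it (limma adjusted p = 0.158, 0.54 and 0.163 for Mpo, Myb and Tal1, blocked 0.0102, 0.0363 and 0.0402). Hoxa9 was above background on 1 Kit- array and on no Kit+ array, and Gata1 was below it on all arrays. Lmo2 exceeded background on 1 Kit- array alone in that group, and with the dim arrays at background it was 1.88-fold higher (limma adjusted p = 0.0556, blocked 0.00344). Mast cell and basophil markers, with 4 tested of 7, summed to 315 to 408 and 353 to 395, which overlap, none was called, and Cpa3, Fcer1a and Tpsb2 were below background on all arrays. NK cell markers summed to 18627 to 20383 on Kit- and 16296 to 19232 on Kit+. These sums overlap and were lower in Kit+ in each number. Prf1 (perforin) and Eomes were called lower in Kit+ (limma adjusted p = 0.00553 and 0.0445). Tbx21 was lower in each number and was called with the block alone (log2 fold -0.94, limma adjusted p = 0.0745, blocked 0.0196). Klrb1c and Gzma had log2 folds of -0.60 and -0.29 and were not called. Of the 9 tested genes 6 had a fold below 0, and the median of the list was -0.29. With the block 3 were called lower, where 4.39% of all genes were. Klrk1, Ncr1 and Klrd1, which encode NK receptors, were higher in Kit+ in each number, with log2 folds of 0.61, 0.46 and 0.21, and were not called with or without the block.

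**Figure D5:**
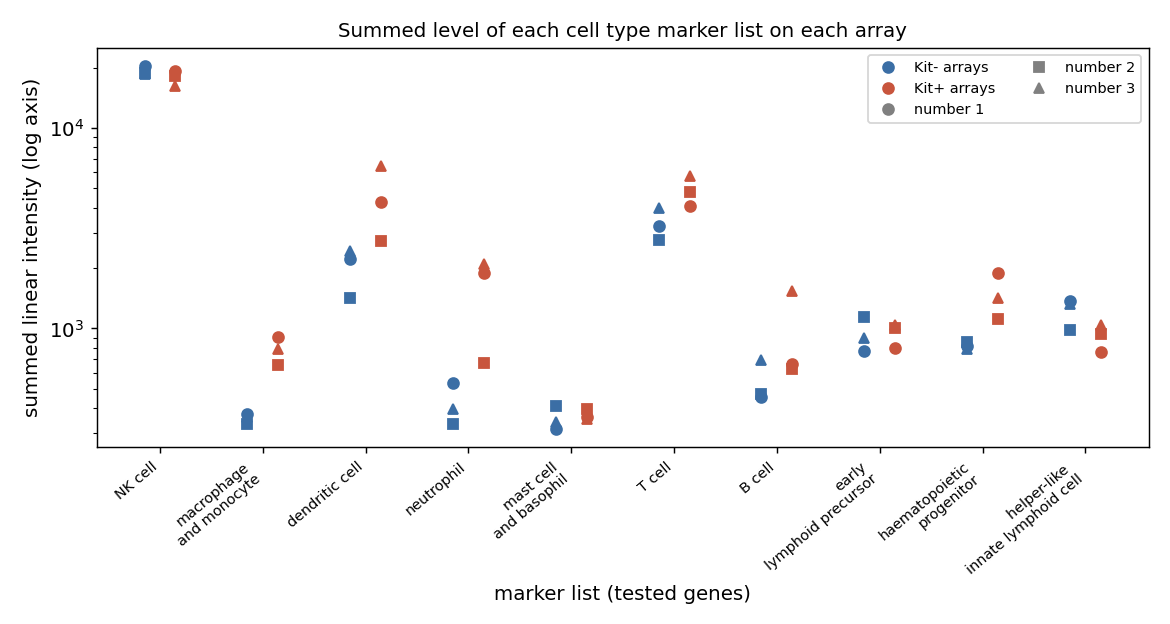
Summed linear intensity (vertical axis, log scale) of the tested genes of each cell type marker list (horizontal axis) on each array, with Kit- in blue, Kit+ in red and a symbol for each sort number. The sums include each probe's background. Macrophage, neutrophil, dendritic cell, T cell and progenitor sums lie higher on all Kit+ arrays, and the sums of the other 5 lists overlap between the groups. Within each sort number, B cell sums were still higher in Kit+, and NK cell and helper-like innate lymphoid sums were lower.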

How the data were processed

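RNA of 3 Kit+ and 3 Kit- sorted NK cell samples was amplified, labelled with biotin and hybridised to Illumina bead arrays, per the labels' protocols. Per the file headers, each deposited table of 1 array gives linear, raw intensity for 45988 probes, with no detection p-value. BeadStudio 3.1.1.0 is named in the submitters' processing notes. The deposited series value table holds intensity that equals a quantile normalization of the raw signal to within 0.000223 of a value; its column medians are all 92.8, and it is linear, uncentred and higher where the raw signal is higher.

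Without detection p-values, neqc could not be run, and raw intensities were background corrected by normexp (offset 50), log2 transformed and then quantile normalized. Probes with a mean above the median of all probes were kept (22994), and a gene is its brightest kept probe (11743 genes). Names came from the platform annotation, updated by gene ID against RefSeq (GRCm38.p6): 29457 probes had 1 symbol, of which 29399 matched, 11 had several and 16520 had none listed. Kit+ was set against Kit- in limma 3.58.1 (lmFit, eBayes; R 4.3.3) without a block, with Benjamini-Hochberg adjustment over all tested genes and a threshold of 0.05; "blocked" values add the replicate number. After subtracting group means, samples sharing a number correlated across genes at 0.635, 0.527 and 0.272, and the other pairs at 0.0843 or less; the numbers therefore count as pairs. "At least" folds compare group means, with the dimmer group's arrays set at the higher of their value and background. The brighter group's arrays keep their values, also below background, and these folds carry no interval of their own. The p-values cover only the spread of these samples, which may be technical, and the number of arrays limits the precision. Of non-expressed probes, 5% exceed the background level by its definition.

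The members, the gene lists and the motifs were chosen with earlier results of these data known. Text names all members, the sort checks Kit, Klrb1c, Ncr1 and Cd3e, pathway genes past the threshold with or without the block or otherwise up to 3 per list with the smallest p, up to 2 markers per list, and the 5 genes most correlated with Il7r. Stat5a, Stat5b, Cish, Bcl2, Pim2, Gabpa, Foxo1, Foxp1, Spi1, Runx1, Runx3 and Il7 lie outside this rule or were added after their values were seen. The same holds for Itgax, Xcr1, Siglech, Zbtb46, Cd3g, Thy1, Tbx21, Gzma, Klrk1, Klrd1 and the markers below background. It also holds for the third and later markers of a list. The fit was tested on simulated data. Alternatives were the block, the value table, median centring, no background correction, offset 16, other probe filters, the mean of kept probes, and samples or pairs left out.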

Additional observations from a re-analysis of the deposited data

How the results depend on the processing

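The direction of Il7r was the same in every alternative run, while its call was lost in 9. It was called with the replicate block (adjusted p = 0.00468 in limma), the value table, no background correction, offset 16, either other probe filter, each kept probe on its own, and the block without number 1 or 3. It was lost with median centring (log2 fold 2.20), the mean of kept probes (0.87), the block without number 2 (1.89) and each single sample left out (1.99 to 2.73). The count of called receptors was accordingly 0 with median centring, the mean of kept probes, the block without number 2, and in all 6 fits without 1 sample, where Il7r had an unadjusted p under 0.05 in each. The fits without 1 sample ignore the pairing. Against the IL-2/IL-15 receptor chains, Il7r differed by 2.40, by 0.90 with the mean of kept probes, and by 2.12 to 2.80 without 1 sample. With both samples of number 1, 2 or 3 left out, it differed by 2.20, 1.96 and 3.05. This difference needs all 3 chains, and Il2ra is not kept by the filter on 3 arrays. Il2rb was not called in any alternative; its log2 fold ranged from -0.42 to 0.10 without 1 sample, the last without Kit- 1, and was 0.05 (0.0467) with the block without number 1. Il15ra was not called in any alternative either; its log2 fold ranged from -0.18 to 0.03 (0.0257) without 1 sample, the last without Kit+ 2, and was 0.11 with the block without number 2. Il2ra, Il21r, Il9r and Crlf2 have no fold to compare, since 1 or both groups were below background. Genes called over the array numbered 147, but 968 with the replicate block, 894, 144 and 1231 with the block without number 1, 2 or 3, 0 in limma after median centring (655 with p below 0.05 before adjustment) and 0 to 76 in limma without 1 sample (0 without Kit+ 3, where 1303 had an unadjusted p under 0.05). Of 43 pathway genes, 9 (20.9%) were called with the replicate block, against 8.24% of all genes. The block without number 1, 2 or 3 called 4, 2 and 8 of the 43, against 7.61%, 1.23% and 10.5% of all genes. Offset 16 called 2 of 43, against 1.42% of all genes, and the mean of kept probes 1 of 43, against 1.38%. The filter on 3 arrays tested 25 pathway genes and called 1 (4%), against 2.56% of all genes. Without 1 sample the count was 0 to 1 of 43, against 0% to 0.647% of all genes. The cause of these differences was not tested. Signal over background limits 6 of the 7 receptors: all but Il2rb had at least 1 array below background.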
